A study of Mus musculus with 2 samples.

Results

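The fibrillar collagens are the collagens whose triple helices pack side by side into the fibrils of the vessel wall. The 8 genes described here were chosen by symbol and are *Col1a1*, *Col1a2*, *Col2a1*, *Col3a1*, *Col5a1*, *Col5a2*, *Col5a3* and *Col11a1*, each of which matched 1 of the 31053 genes listed. They were measured by scRNA-seq in primary vascular smooth muscle cells (VSMCs) from the aorta of wild type mice after 5 days in culture, in 2 libraries that are biological replicates of this 1 condition. The mice were of the C57BL6/N background, and the cells of both libraries were grown in full medium, detached with trypsin and captured with the 10x Genomics 3' method. This method tags each mRNA molecule near its 3' end with a cell barcode and a random tag, the UMI, and UMIs count molecules irrespective of gene length.

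Collagen chains are made as procollagens with a long central stretch of Gly-X-Y triplets, which winds with that of its partners into a triple helix. Type I collagen combines *Col1a1* and *Col1a2* chains and gives large fibrils their strength. Type III is built from *Col3a1* chains alone and is abundant in elastic vessels. Type V, mostly of *Col5a1* and *Col5a2* chains, starts fibrils and limits their diameter. *Col2a1* and *Col11a1* are best known from the fibrils of cartilage, and *Col11a1* chains can also join type V chains. VSMCs in culture lose contractile proteins such as smooth muscle myosin heavy chain (*Myh11*) and take up matrix synthesis, which is called phenotypic modulation.

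The libraries held 127949633 UMIs (replicate 1) and 132561822 UMIs (replicate 2). Cells were barcodes that reached 300 genes and 3000 UMIs with less than 20% of them mitochondrial, which left 4866 cells with a median of 22234.5 UMIs and 6824 cells with a median of 16310 UMIs. The libraries shared 9 of these barcodes. Each cell entered 1 class, in this order: endothelial cells (102 and 141, at least 2 UMIs in 2 of *Pecam1*, *Cdh5*, *Cldn5* and *Gja4*), cycling cells (1450 and 1651, at least 6 UMIs of *Mki67*, *Top2a* and *Cenpf*), Sox9 cells (529 and 1378, at least 2 UMIs of *Sox9*, a transcription factor of chondrocytes), Myh11-high cells (292 and 459, at least 5 UMIs of *Myh11*) and Myh11-low cells (2291 and 2967, at most 1 UMI). The remaining 202 and 228 cells, with 2 to 4 *Myh11* UMIs, entered no class. The endothelial and Myh11-high classes were checked on markers that they were not chosen on, and the Sox9 and cycling classes are named by their rule alone. The sum of 7 other endothelial markers was 2278 and 2532 CPM (counts per 1e6 UMIs of the class) in endothelial cells against 19.2 to 53.4 CPM in the other classes, with all 7 detected in endothelial cells. The sum of 7 other contractile markers was 24553 and 27891 CPM in Myh11-high cells against 6327 and 3700 CPM in Myh11-low cells. Macrophage markers summed to at most 23.4 CPM and Schwann cell markers to at most 1.78 CPM in any class.

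All 8 genes were detected, and together they made up 0.50% of the UMIs of the cells of replicate 1 and 0.346% of replicate 2. *Col1a1*, *Col1a2* and *Col3a1* held 80.9% and 82.3% of these UMIs. Over all cells, *Col1a2* was the most abundant member at 1973 and 1563 CPM, followed by *Col1a1* (1367 and 795 CPM), *Col3a1* (706 and 492 CPM), *Col5a2* (455 and 335 CPM), *Col5a1* (371 and 161 CPM) and *Col11a1* (119 and 86.3 CPM). *Col5a3* (7.28 and 3.39 CPM) and *Col2a1* (3.05 and 24.7 CPM) were rare, and they exchanged places between the libraries. The other genes were in the same order of level in both libraries. Among the other fibrillar collagen genes, *Col11a2*, *Col24a1* and *Col27a1* stayed at or under 2.48 CPM in every class of both libraries.

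The gene models carry the marks of this family. In the GENCODE M21 annotation of GRCm38, the longest unbroken run of Gly-X-Y triplets was 337 to 344 triplets in the 8 predicted proteins. Of their 51 to 67 coding exons, 41.2 to 47.1% were exactly 54 bases long, and 74.6 to 88.5% had a length that is a multiple of 9 bases. *Col1a1* (ENSMUSG00000001506) lies on chromosome 11 from 94936224 to 94953042 (plus strand), *Col1a2* (ENSMUSG00000029661) on chromosome 6 from 4504814 to 4541544 (plus strand) and *Col2a1* (ENSMUSG00000022483) on chromosome 15 from 97975602 to 98004695 (minus strand). *Col3a1* (ENSMUSG00000026043, chromosome 1, 45311538 to 45349706, plus strand) and *Col5a2* (ENSMUSG00000026042, chromosome 1, 45374321 to 45503282, minus strand) are neighbours that point at each other, 24614 bases apart with no annotated gene between them. *Col5a1* (ENSMUSG00000026837) lies on chromosome 2 from 27886425 to 28039514 (plus strand), *Col5a3* (ENSMUSG00000004098) on chromosome 9 from 20770050 to 20815067 (minus strand) and *Col11a1* (ENSMUSG00000027966) on chromosome 3 from 114030540 to 114220718 (plus strand). Other annotated genes overlap *Col1a2*, *Col3a1*, *Col5a1*, *Col5a2* and *Col5a3*, and how UMIs in such overlaps were assigned is not given in the sources used here.

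RefSeq promoter sequences (GRCm38.p6) were on hand for 5 of the genes. The 250 bases before the start site are shown for *Col5a1* and *Col11a1*, which were lower in Myh11-high than in Myh11-low cells of both libraries, and for *Col3a1*, which was not. Capitals mark matches on either strand. The motifs searched were the CCAAT box, the TATAA box, the Sp1 motif GGGCGG, the Sox motif AACAAT and the CArG box, which serum response factor binds in contractile genes.
Col5a1 (chr2:27886175-27886424, plus strand): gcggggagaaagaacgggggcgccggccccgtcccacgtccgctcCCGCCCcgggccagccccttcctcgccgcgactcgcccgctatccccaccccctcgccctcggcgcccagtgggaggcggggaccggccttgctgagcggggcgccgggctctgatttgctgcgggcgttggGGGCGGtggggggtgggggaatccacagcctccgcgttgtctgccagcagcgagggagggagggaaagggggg
Col11a1 (chr3:114030290-114030539, plus strand): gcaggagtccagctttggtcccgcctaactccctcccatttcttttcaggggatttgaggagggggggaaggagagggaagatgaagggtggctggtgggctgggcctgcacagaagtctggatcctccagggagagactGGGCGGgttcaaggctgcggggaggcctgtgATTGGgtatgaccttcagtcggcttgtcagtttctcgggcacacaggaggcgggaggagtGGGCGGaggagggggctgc
Col3a1 (chr1:45311288-45311537, plus strand): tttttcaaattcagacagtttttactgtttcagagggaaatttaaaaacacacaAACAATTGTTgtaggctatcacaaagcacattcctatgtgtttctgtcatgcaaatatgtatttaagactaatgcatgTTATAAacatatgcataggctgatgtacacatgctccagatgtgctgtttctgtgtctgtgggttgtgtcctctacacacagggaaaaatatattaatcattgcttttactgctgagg
The *Col5a1* window is 76.4% G or C and the *Col11a1* window 62.4%, against 35.2% for *Col3a1* and a median of 52.4% over 32851 promoters. *Col5a1* and *Col11a1* each hold GGGCGG at 2 places, and *Col11a1* also holds CCAAT on the minus strand, 79 bases before the start. The windows of *Col1a2* and *Col5a3* also hold GGGCGG at 2 places and CCAAT at 1. The *Col1a2* window (chromosome 6, 4505368 to 4505617) precedes the RefSeq start but lies inside the GENCODE gene given above. GGGCGG was found in 32.7% and CCAAT in 33.8% of all promoter windows of this length. The *Col3a1* window holds neither of them, but TATAA on both strands, overlapping at 118 and 117 bases before the start, and AACAAT on both strands, overlapping at 196 and 192 bases. TATAA was in 22.8% and AACAAT in 9.42% of all windows. These letters of the CArG box, which 1.47% of all windows hold, were not in the windows of the 5 members. Such matches describe the sequence and are not evidence of a bound factor.

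**Figure D1:**
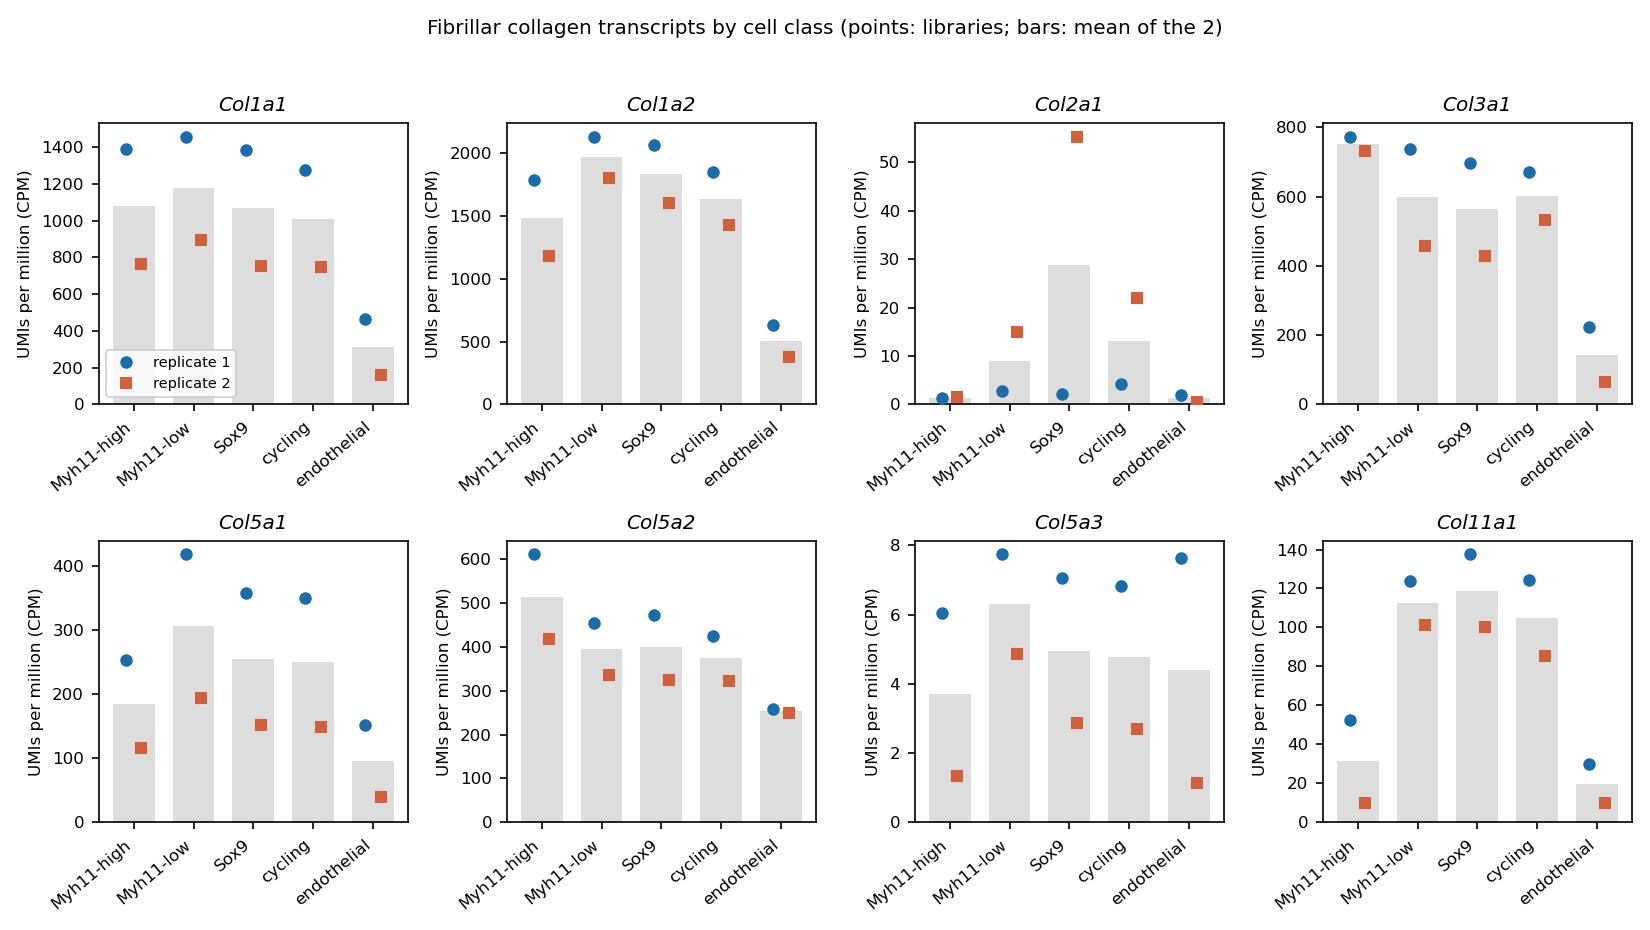
Levels of the 8 genes in CPM (vertical axes, each from 0) in the 5 cell classes. Blue circles are replicate 1, orange squares replicate 2 and bars their mean. *Col11a1* is lowest in Myh11-high and endothelial cells, while the *Col5a2* and *Col3a1* points of Myh11-high cells are the highest of their library.

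The first comparison asks how the collagens differ between Myh11-low and Myh11-high cells. These classes were sampled on 1 day of culture, so that a loss of *Myh11* over time was not followed. Among the 6 abundant members, *Col11a1* differed most between them. Its level was 124 CPM in the Myh11-low cells of replicate 1 and 101 CPM in those of replicate 2, but 52.6 and 10.1 CPM in the Myh11-high cells. *Col11a1* was thus higher in Myh11-low cells within each library. *Col5a1* followed with 418 and 193 CPM in Myh11-low cells and 254 and 116 CPM in Myh11-high cells, and *Col1a2* with 2131 and 1803 CPM against 1785 and 1180 CPM. Both genes were higher in Myh11-low cells within each library, and replicate 1 was higher than replicate 2 in each class. *Col5a2* went the other way, with 455 and 336 CPM in Myh11-low cells and 611 and 418 CPM in Myh11-high cells, so that it was higher in Myh11-high cells within each library. *Col1a1* was closest, with 1458 and 895 CPM in Myh11-low against 1392 and 764 CPM in Myh11-high cells.

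These differences were tested on the UMI sums of the 10 combinations of class and library with edgeR's quasi-likelihood test, over 14064 genes. In the fit that did not know which sums came from the same library, 0 of the 8 genes passed an adjusted p of 0.05, where 1.74% of all genes were called higher and 3.18% lower in Myh11-low cells. The log2 difference of *Col11a1* was 1.78 ± 0.70 (SE, adjusted p = 0.205 from edgeR). Sums with the same replicate number come from the same culture, and with the library as a replicate block 14.2% of all genes were called higher and 13.2% lower. In this blocked fit 4 of the 8 genes were higher in Myh11-low cells and 1 was lower. *Col11a1* was 3.89-fold higher (log2 difference 1.96 ± 0.38 SE, adjusted p = 0.0064 from edgeR with the block). *Col5a1* was 1.57-fold higher (log2 difference 0.65 ± 0.13 SE, adjusted p = 0.00833 from edgeR with the block), and *Col1a2* was 1.28-fold higher (adjusted p = 0.0244 from edgeR with the block). *Col2a1* passed as higher (adjusted p = 0.0468 from edgeR with the block). No fold is given, since the Myh11-high cells held only 9 and 14 of its UMIs (1.24 and 1.58 CPM). The estimated free RNA, which can be too high, would alone give 0.429 and 2.57 CPM. *Col5a2* was lower by 0.45 on the log2 scale (SE 0.11, adjusted p = 0.0174 from edgeR with the block), which is a 1.37-fold higher level in Myh11-high cells. When the free RNA was subtracted in the blocked fit, an alternative chosen after seeing the data, *Col11a1* (adjusted p = 0.0335 from edgeR), *Col5a1* (0.0172) and *Col1a2* (0.0173) still passed, while the calls of *Col5a2* (0.0626) and *Col2a1* (0.0683) were lost. The median log2 difference of the 8 genes was 0.51 in the blocked fit, beside 0.04 over all genes tested. Without TMM scaling, 328 genes were called higher and 383 lower in place of 245 and 447 in the fit without the block. Depth moved with these classes, as the median UMIs per cell were 18804 and 13465 in Myh11-low and 23550 and 17651 in Myh11-high cells.

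*Col3a1*, *Col1a1* and *Col5a3* did not pass in either fit. *Col3a1* was at 774 and 733 CPM in Myh11-high cells and at 739 and 457 CPM in Myh11-low cells. The gap was wide in replicate 2 (log2 difference -0.78) and narrow in replicate 1 (-0.12), and the blocked adjusted p from edgeR was 0.234. *Col5a3*, a minor type V chain, was at 7.74 and 4.85 CPM in Myh11-low and 6.05 and 1.35 CPM in Myh11-high cells (adjusted p = 0.085 from edgeR with the block).

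**Figure D2:**
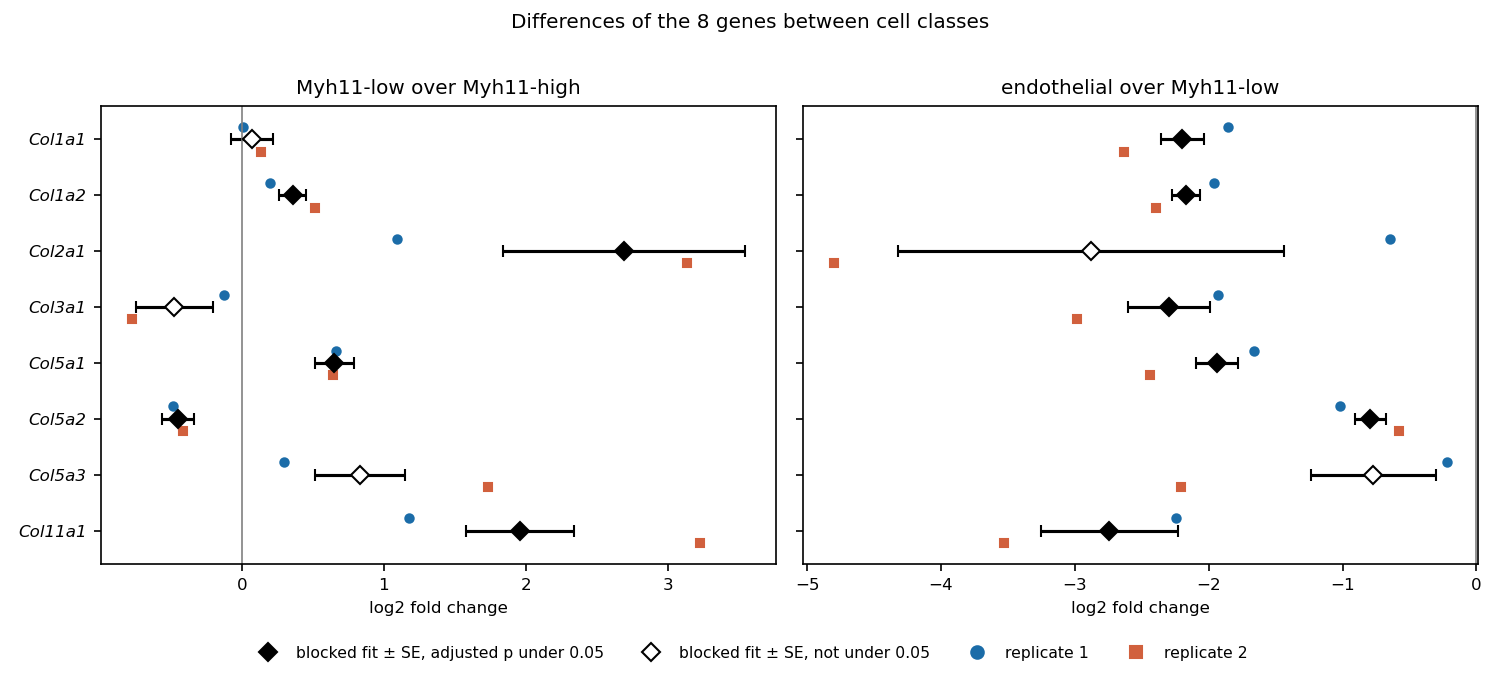
Log2 fold changes of the 8 genes between classes (horizontal axes), for Myh11-low over Myh11-high cells (left) and endothelial over Myh11-low cells (right). Diamonds with bars are the edgeR fit with the library as a block ± standard error, filled where the adjusted p is under 0.05, and circles and squares are replicates 1 and 2. On the left *Col11a1* lies at 1.96 and *Col5a2* at -0.45, and on the right the diamonds of all 8 genes lie under 0.

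The levels were also taken along finer steps of *Myh11*. Among cells outside the endothelial, cycling and Sox9 classes, *Col11a1* was at 125 CPM in replicate 1 and 105 CPM in replicate 2 in cells with 0 *Myh11* UMIs. It was at 98.1 and 31.8 CPM in cells with 2 to 4 UMIs, and at 28.2 and 11.9 CPM in cells with 20 or more UMIs. Replicate 1 was lower at each step, while replicate 2 was at 10.3 CPM at 5 to 9 UMIs and stayed near that level. *Col5a1* in replicate 1 was lower at each step, from 419 CPM at 0 UMIs to 193 CPM at 20 or more. In replicate 2 it went from 195 CPM at 0 UMIs to 102 CPM at 5 to 9 UMIs, and was higher again at 10 to 19 (120 CPM) and at 20 or more (137 CPM). *Col5a2* was higher at each step of both libraries, from 447 and 334 CPM to 672 and 446 CPM. These values are a description of 1 sum per step and library and carry no test.

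**Figure D3:**
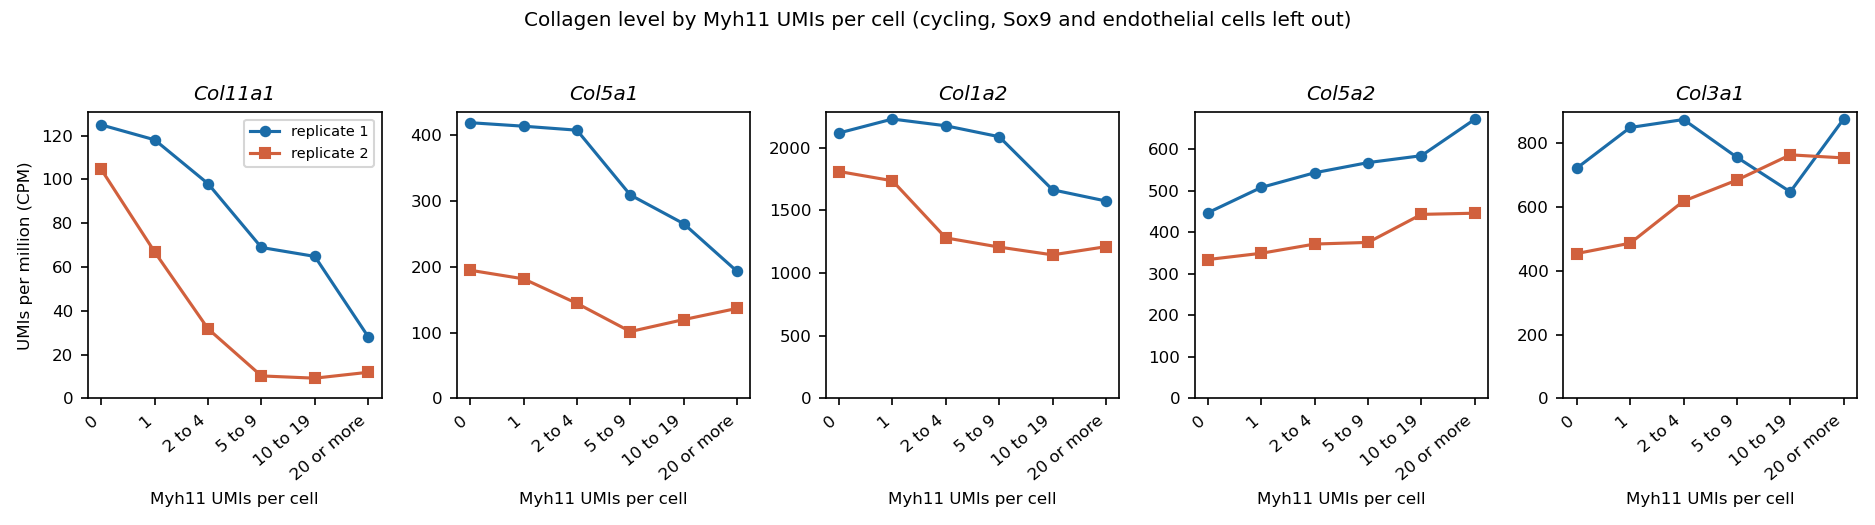
Levels of 5 of the genes in CPM (vertical axes from 0) in cells grouped by their *Myh11* UMIs (horizontal axes). Blue circles are replicate 1 and orange squares replicate 2. *Col11a1* goes from 125 and 105 CPM at 0 *Myh11* UMIs to 28.2 and 11.9 CPM at 20 or more, and *Col5a2* from 447 and 334 to 672 and 446 CPM.

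Cells with a *Col11a1* UMI made up 66.2% of the Myh11-low cells of replicate 1 (exact 95% binomial interval 64.2 to 68.2%) and 51.8% of those of replicate 2 (50 to 53.6%). In Myh11-high cells the shares were 39.7% (34.1 to 45.6%) and 10.9% (8.19 to 14.1%), although these cells were deeper. In endothelial cells, at median depths of 14629 and 10250 UMIs, they were 13.7% (7.71 to 22.0%) and 6.38% (2.96 to 11.8%). The free RNA held 72.2 and 60.0 CPM of *Col11a1*, and at its estimated part of the UMIs (20.7 and 12.9%) it would alone give a class 14.9 and 7.76 CPM. The Myh11-high level of replicate 2, 10.1 CPM, was little above this estimate, and that of replicate 1, 52.6 CPM, was well above it. The Myh11-high share of replicate 2 was likewise not separated from the endothelial share by its interval, and that of replicate 1 was. The free RNA estimate was too high for most endothelial cells. It would give 295 and 148 CPM of *Col1a2*, but only 35.3 and 29.1% of endothelial cells had a *Col1a2* UMI. The estimate counts every UMI of the endothelial markers *Kdr*, *Tie1*, *Tek* and *Emcn* outside the endothelial class as free RNA. The 73 and 114 endothelial cells without a *Col1a1* UMI, a choice made on a collagen, held 0.971 and 0.861 CPM of *Col11a1*. Thinned to 3000 UMIs per cell, the shares were 26.2 and 21.5% in Myh11-low, 11.8 and 2.58% in Myh11-high and 3.68 and 1.48% in endothelial cells. The intervals cover counting error only. Cells with at least 5 *Myh11* UMIs held less *Col11a1* where they had *Acan* (aggrecan, a cartilage proteoglycan), with a wide gap in replicate 1 only. In the 114 and 64 non-endothelial cells with at least 5 *Myh11* and at least 2 *Acan* UMIs, *Col11a1* was at 12.3 and 7.69 CPM, against 77.9 and 13.8 CPM in the 334 and 757 such cells without *Acan*. The replicate 2 values lie near the free RNA estimate of 7.76 CPM. These cells were not matched for *Myh11* level or cycling. The summed chondrocyte markers were 109 and 17.8 CPM in Myh11-high cells, of which *Acan* alone gave 83.5 and 14.5 CPM. In cells with at least 2 UMIs each of *Lum* and *Pdgfra*, genes of modulated VSMCs, *Col11a1* was at 129 and 109 CPM and *Col5a1* at 455 and 207 CPM. Cells with neither had 80.5 and 33.2 CPM of *Col11a1* and 236 and 109 CPM of *Col5a1*.

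Myh11-high and Myh11-low cells also occur among cycling cells, which allowed the comparison to be repeated there. Endothelial cells and all cells with at least 2 *Sox9* UMIs were left out of it. Cycling Myh11-high cells (139 and 238 cells) held 54.4 and 11 CPM of *Col11a1*, and cycling Myh11-low cells (950 and 841 cells) held 135 and 112 CPM. These values were close to those of the non-cycling cells of the same *Myh11* class. *Col5a2* was at 528 and 375 CPM in cycling Myh11-high and at 415 and 318 CPM in cycling Myh11-low cells. In a fit of 12843 genes without the block, 0 of the 8 genes passed among cycling cells (2.76% of all genes called) or among non-cycling cells (4.55% called). With the block, *Col1a2*, *Col2a1*, *Col5a1* and *Col11a1* were higher and *Col5a2* was lower in Myh11-low cells among cycling cells, where 9.86% of all genes were called higher and 9.2% lower. *Col2a1* was near the floor, at 0.650 and 2.45 CPM in cycling Myh11-high cells, beside the free RNA estimates of 0.429 and 2.57 CPM. Among cycling cells *Col11a1* was 4.47-fold higher (adjusted p = 0.038 from edgeR with the block) and *Col5a1* 1.80-fold higher (adjusted p = 0.000629 from edgeR with the block). The same 5 genes passed among non-cycling cells, where 12.1% of all genes were called higher and 13.9% lower. The non-cycling sums are those of the first comparison, so that they add no independent cells. The difference between cycling and non-cycling cells was tested as an interaction, and 0 genes passed in either fit (0.0% called), with 127 genes at an unadjusted p under 0.05 without the block and 535 with it. For *Col11a1* the interaction was 0.14 ± 0.75 (SE, adjusted p = 1 from edgeR with the block).

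Cycling cells were then compared with Myh11-low cells. The cycling class was assigned before *Myh11* was read, so it also holds Myh11-high cells. Of the 1469 and 1672 cells that met the cycling rule, 162 and 306 had at least 5 *Myh11* UMIs. Their part in the differences below was not tested. *Col1a2* was at 1847 and 1425 CPM in cycling cells and at 2131 and 1803 CPM in Myh11-low cells, lower within each library. It was the only member to pass, and only with the block (log2 difference -0.31 ± 0.10 SE, adjusted p = 0.0424 from edgeR with the block). In that fit 16.1% of all genes were called higher and 12.2% lower, and without the block, where 0 of the 8 genes passed, 5.49% were higher and 0.476% lower. *Col1a1* was at 1278 and 745 CPM in cycling cells and *Col3a1* at 670 and 531 CPM. For *Col3a1* the libraries went in opposite directions, with log2 differences of -0.19 and 0.21. Cycling cells were the deepest class, with medians of 28598 and 21108 UMIs.

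No member passed the test between Sox9 and Myh11-low cells. The Sox9 class was also assigned before *Myh11* was read. Of its 529 and 1378 cells, 480 and 1185 had at most 1 *Myh11* UMI, and 21 and 115 had at least 5. The part of this mixture in the values was not tested. In this comparison 0 genes of 14064 passed without the block (0.0%; 250 genes at an unadjusted p under 0.05, and 7 genes by DESeq2) and 2 genes with it (0.0142%). *Col11a1* was at 137 and 100 CPM in Sox9 cells, beside 124 and 101 CPM in Myh11-low cells. *Col2a1*, a known target of Sox9 in cartilage, was at 2.12 and 55.3 CPM in Sox9 cells and at 2.78 and 15 CPM in Myh11-low cells. It was higher in the Sox9 cells of replicate 2 and lower in those of replicate 1, and its log2 difference was 1.37 ± 0.46 (SE, adjusted p = 0.376 from edgeR with the block). Without the cell of each library with the most *Col2a1* UMIs, a choice made after seeing the data, the Sox9 cells of replicate 2 were at 33.3 CPM. In replicate 1 the cell left out was a Myh11-low cell. The Myh11-low cells of replicate 1 were then at 1.95 CPM and its Sox9 cells at 2.12 CPM. The direction of replicate 1 thus rested on 1 cell.

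*Col2a1* and *Col5a3* were held by few cells, 2.06 and 6.14% of all cells for *Col2a1* and 12.7 and 5.19% for *Col5a3*. *Col2a1* was the one with many UMIs in single cells. Replicate 1 had 364 *Col2a1* UMIs in 100 cells and replicate 2 had 3061 UMIs in 419 cells. The highest cell held 39 UMIs in replicate 1 and 625 UMIs in replicate 2, and the 10 highest cells held 43.4 and 51.9% of the *Col2a1* UMIs of their library. By contrast, the tenth of cells richest in *Col1a1* held 26.5 and 28.3% of its UMIs. Cells with at least 5 *Col2a1* UMIs, 20 in replicate 1 and 97 in replicate 2, were spread over cycling (14 and 30), Sox9 (1 and 41) and Myh11-low cells (5 and 26), and none were in the Myh11-high or endothelial class. Of all cells, the Myh11-high class held 6.00 and 6.73% and the endothelial class 2.10 and 2.07%. Irrespective of class, 0 of the 20 and 3 of the 97 cells had at least 5 *Myh11* UMIs. The shares were 9.84 and 13.1% in all other cells. At least 2 *Sox9* UMIs were in 10 of the 20 and 56 of the 97 cells, against 16.3 and 26.9% of all other cells. Their *Col11a1* level was 165 and 223 CPM, against 119 and 83.9 CPM in all other cells. *Col3a1* was at 367 and 280 CPM in them, against 708 and 496 CPM, and *Col5a1* at 226 and 103 CPM, against 372 and 163 CPM. Other cartilage genes were seen in a minority of these cells, all in replicate 2, where their shares were above those of the remaining cells. *Col9a1*, a partner of *Col2a1* in cartilage fibrils, had a UMI in 10.3% of them (10 cells) against 0.0446% of the rest, *Hapln1*, a cartilage link protein, in 7.22% (7 cells) against 0.164%, and *Acan* in 7.22% (7 cells) against 2.51%. In replicate 1, 0 of the 20 cells had a UMI of *Col9a1*, *Hapln1* or *Acan*, and *Matn1* was in 0 of these cells of either library. These shares are not thinned to 1 depth and have no test. In replicate 2, the 305 cells with a *Tfap2b* UMI held 191 CPM of *Col2a1* and 229 CPM of *Col3a1*, against 15.5 and 514 CPM in cells without one. Replicate 1 had 7 such cells, with no *Col2a1* UMI. Of the 97 cells of replicate 2 with at least 5 *Col2a1* UMIs, 9 had a *Tfap2b* UMI (9.28%, against 4.43% of all other cells). The 191 CPM is a level of summed cells, and how many of the 305 cells held it was not counted. The cells with at least 5 *Col2a1* UMIs were deeper than the rest, with medians of 26628 and 19179 UMIs against 22206 and 16243. Free RNA, measured in barcodes with 1 to 100 UMIs, held 2.08 and 19.9 CPM of *Col2a1*.

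Endothelial cells, which line the vessel and are a minor part of the culture, were compared with Myh11-low cells as cells of another type. *Col1a1* was at 463 and 159 CPM in them, *Col1a2* at 631 and 379 CPM, *Col3a1* at 223 and 64.0 CPM, and *Col11a1* at 30.1 and 9.71 CPM. Within each library, the endothelial value of each of these genes was below those of the 4 VSMC classes. The *Col11a1* value of replicate 2 was near the 10.1 CPM of its Myh11-high cells. Without the block, 4 of the 8 genes passed as lower, where 12.6% of all genes were called higher and 11.1% lower. *Col1a2* was 4.40-fold lower in endothelial cells (log2 difference -2.14 ± 0.32 SE, adjusted p = 0.00298 from edgeR), *Col1a1* 4.28-fold (adjusted p = 0.0405 from edgeR), *Col3a1* 4.71-fold (adjusted p = 0.0233 from edgeR) and *Col11a1* 6.33-fold (adjusted p = 0.0442 from edgeR). With the block, where 19.8% of all genes were called higher and 20.9% lower, 6 of the 8 were lower, as *Col5a1* (3.84-fold, adjusted p = 2.6e-05 from edgeR with the block) and *Col5a2* (1.73-fold, adjusted p = 0.000819 from edgeR with the block) passed too. *Col2a1* and *Col5a3* passed in neither. The calls of *Col1a1* and *Col3a1* were lost when only endothelial cells were taken out of the classes first (adjusted p = 0.0638 and 0.0633 from edgeR). That of *Col11a1* was lost without TMM scaling (0.0513) and with free RNA subtracted (0.0654). The median log2 difference of all genes was -0.06 with TMM scaling and 0.12 without it, and the calls split into 1774 higher and 1555 lower with it, and into 2385 and 1069 without it.

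The collagen UMIs of the endothelial class were held by few of its cells. A *Col1a1* UMI was found in 28.4% (19.9 to 38.2%) of the endothelial cells of replicate 1 and in 19.1% (13.0 to 26.6%) of those of replicate 2, against 97.7 and 97.1% of all other cells. The 16 endothelial cells of replicate 1 and 11 of replicate 2 with at least 10 *Col1a1* UMIs held 96.9 and 84.6% of the *Col1a1* UMIs of the class. These cells had medians of 40761.5 and 32808 UMIs and 6018 and 6981 CPM of contractile markers, and their endothelial markers summed to 729 and 628 CPM. The 73 and 114 endothelial cells with no *Col1a1* UMI had medians of 12582 and 9024.5 UMIs, 921 and 658 CPM of contractile markers, and 3094 and 3161 CPM of endothelial markers. The part of cells captured together in these values was not tested. The 6 adventitial fibroblast markers summed to 295 and 424 CPM in the endothelial class against 18.5 to 70.9 CPM in the other classes, of which *Cd34*, also an endothelial gene, gave 265 and 405 CPM. In the cells without *Col1a1*, *Col1a2* was at 16.5 and 22.4 CPM, *Col3a1* at 14.6 and 10.3 CPM, *Col5a1* at 17.5 and 12.9 CPM, and *Col11a1* at 0.971 and 0.861 CPM. *Col5a2* was still at 184 and 225 CPM there, and 63.0 and 65.8% of these cells had a *Col5a2* UMI. *Col5a2* was thus the one member found broadly over the endothelial class, with a UMI in 69.6 and 69.5% of all its cells. This split of the cells used *Col1a1* itself and has no test. When each cell was given the same weight (the mean of CPM per cell), the mean log2 difference between endothelial and Myh11-low cells was -3.10 for *Col1a1*, -3.01 for *Col1a2*, -3.27 for *Col3a1* and -0.69 for *Col5a2*.

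**Figure D4:**
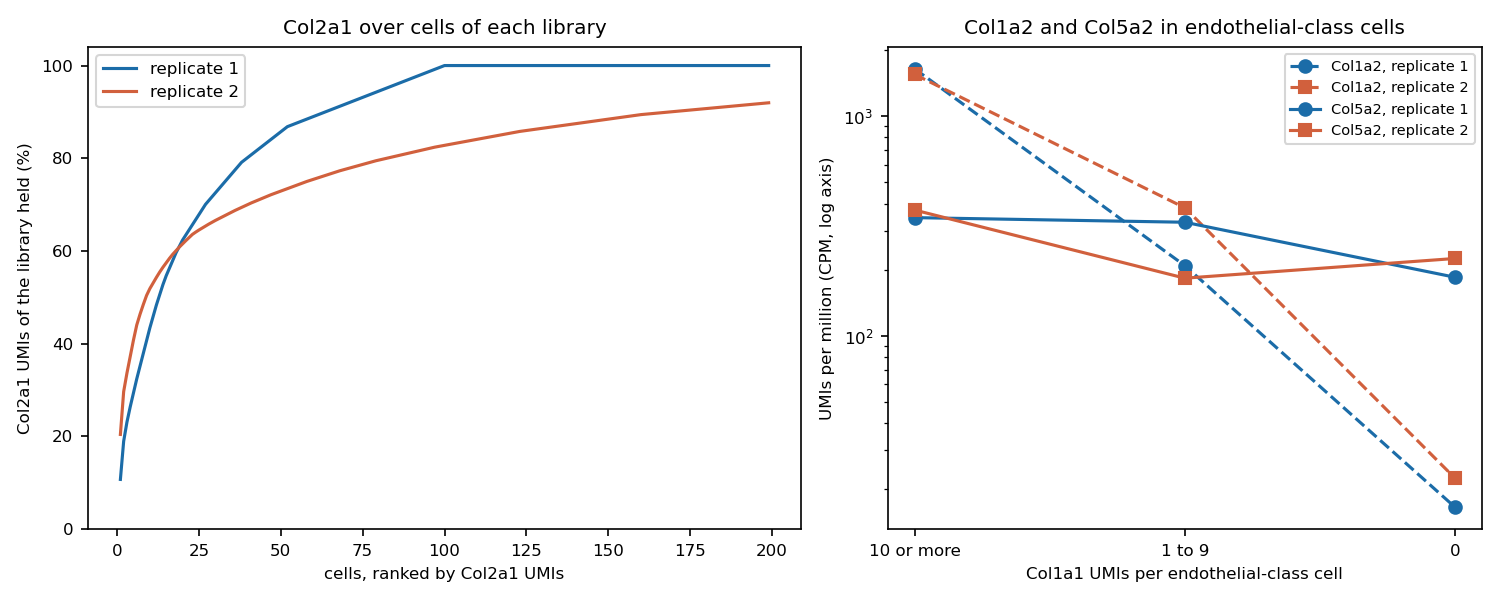
Left, the share of all *Col2a1* UMIs of a library (vertical axis, %) held by its richest cells (horizontal axis, cells ranked by *Col2a1* UMIs), where the 10 highest cells reach 43.4% in replicate 1 (blue) and 51.9% in replicate 2 (orange). Right, levels of *Col1a2* (dashed) and *Col5a2* (solid) in CPM on a log axis in endothelial cells grouped by their *Col1a1* UMIs, where *Col1a2* drops to 16.5 and 22.4 CPM and *Col5a2* stays at 184 and 225 CPM in cells with 0 *Col1a1* UMIs.

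Ratios between chains cancel the depth of a library, so that they can be set side by side between classes. They are given for each library with no test, since an exact two-sided permutation test of 2 against 2 sums cannot give a p below 0.33. *Col1a1* had fewer UMIs than *Col1a2* in all 5 classes of both libraries. The UMIs of the 2 genes were not calibrated against each other, and another annotated gene overlaps *Col1a2*. The level of this ratio is therefore not a measure of the proportion of their mRNAs, nor of the chains, of which type I procollagen takes more *Col1a1*. The ratio of *Col1a1* to *Col1a2* was 0.684 and 0.497 in Myh11-low, 0.669 and 0.470 in Sox9, 0.692 and 0.523 in cycling, and 0.780 and 0.648 in Myh11-high cells. It was highest in Myh11-high cells in each library, and in every class replicate 1 had the larger value. The ratio of *Col5a2* to *Col5a1*, the chains of type V collagen, was 2.41 and 3.60 in Myh11-high cells and 1.09 and 1.73 in Myh11-low cells. Myh11-high cells thus had 2.21 times the ratio of Myh11-low cells in replicate 1 and 2.08 times in replicate 2, so that both libraries gave nearly the same factor. The ratio of *Col11a1* to *Col5a1* was 0.207 and 0.0873 in Myh11-high cells and 0.297 and 0.524 in Myh11-low cells. With the free RNA subtracted, the Myh11-high ratio of replicate 2 was 0.0246, from 21 *Col11a1* UMIs left of 90, and that of replicate 1 was 0.206. The ratio was highest in Sox9 cells, at 0.384 and 0.657. The ratio of *Col3a1* to *Col1a1* was 0.507 and 0.511 in Myh11-low cells, and 0.556 and 0.959 in Myh11-high cells. In endothelial cells the ratio of *Col5a2* to *Col3a1* was 1.16 and 3.89, against 0.571 to 0.790 in the 4 VSMC classes.

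**Figure D5:**
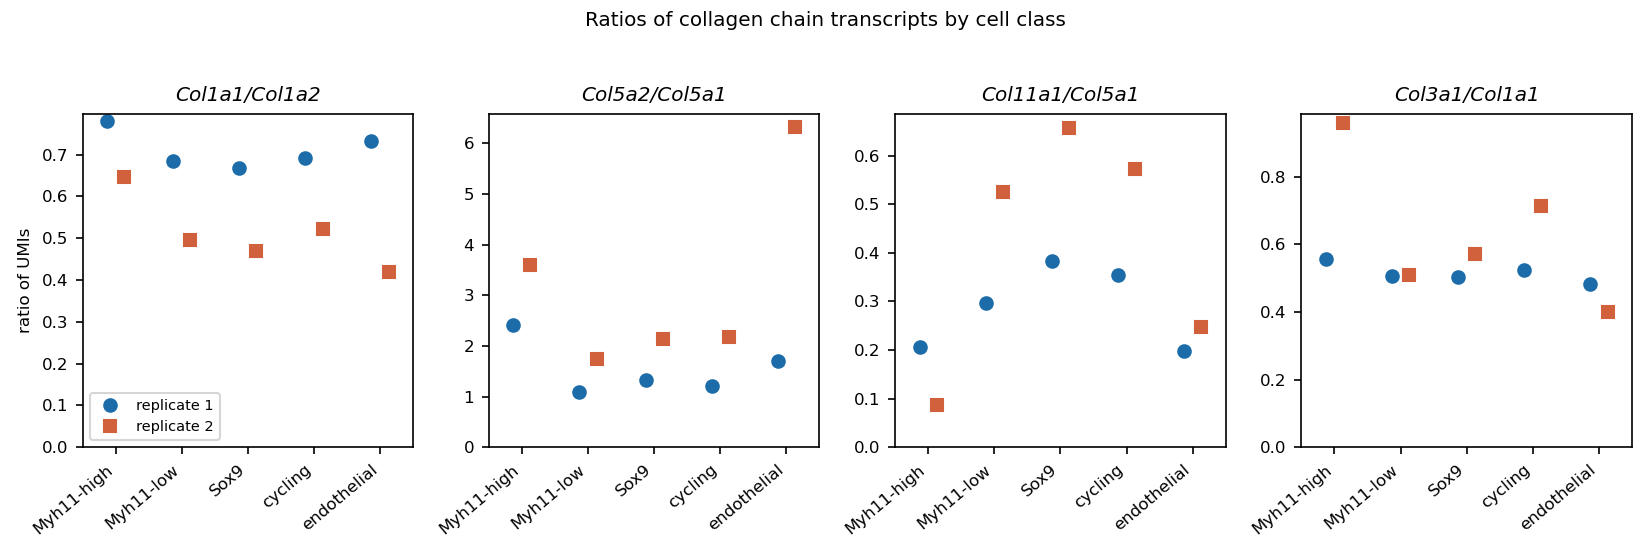
Ratios of the UMIs of 2 chains (vertical axes, from 0) in the 5 classes, with replicate 1 as blue circles and replicate 2 as orange squares. *Col5a2* to *Col5a1* is 2.41 and 3.60 in Myh11-high and 1.09 and 1.73 in Myh11-low cells.

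The libraries differed in the level of most members. *Col1a1* was 1.63 to 1.84 times as high in replicate 1 as in replicate 2 over the 4 VSMC classes, *Col5a1* 2.16 to 2.35 times and *Col5a3* 1.60 to 4.48 times. These 3 of the 8 genes were at least 1.5 times higher in replicate 1 in each of these classes, as were 4.02% of all genes tested. *Col1a2* (1.18 to 1.51 times) and *Col5a2* (1.32 to 1.46 times) differed less. *Col2a1* was the member higher in replicate 2, where the ratio of replicate 1 to replicate 2 was 0.0383 in Sox9 cells. *Col11a1* differed by 1.22 to 1.46 times in Myh11-low, Sox9 and cycling cells, and by 5.19 times in Myh11-high cells.

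Within the Myh11-low cells, the chains of type I collagen varied together. Pearson's r of log levels between *Col1a1* and *Col1a2* was 0.851 over 2291 cells of replicate 1 and 0.727 over 2967 cells of replicate 2. It was 0.482 and 0.449 for *Col1a1* and *Col3a1*, and 0.211 and 0.206 for *Col1a1* and *Col11a1*. These cells share a library, their counts are sparse, and r is given as a description. A *Col1a1* UMI was found in 95.7 and 94.7% of the Myh11-low cells, against 98.8 to 100% in the other VSMC classes. The part of the cells without one in r was not tested. *Sparc*, a collagen-binding matrix protein, reached an r of 0.709 and 0.654 with *Col1a1*. Over the 10 sums of class and library, which share libraries and include the endothelial class, the genes most like *Col1a2* among 9482 genes were *Bgn* (r = 0.994), *Ptpn9* and *Efemp2*. Those most like *Col11a1* were *Pdpn* (r = 0.988), *Fer* and *Steap1*, those most like *Col5a1* were *Thbs3* (r = 0.988), *Col6a2* and *Col6a1*, and those most like *Col1a1* were *Vasn* (r = 0.996), *Mmp23* and *Foxs1*.

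The genes that process, secrete and bind procollagen were counted by lists. The enzymes and chaperones that hydroxylate, glycosylate and fold procollagen (16 of 17 tested) had 0 calls between Myh11-low and Myh11-high cells without the block, and 2 higher and 2 lower with it. These counts of 16 were near the shares of all genes called in this fit (14.2% higher and 13.2% lower). *Plod2*, a lysyl hydroxylase that prepares collagen for cross-linking, was at 1147 and 908 CPM in Myh11-low and 574 and 396 CPM in Myh11-high cells (log2 difference 1.02 ± 0.06 SE, adjusted p = 2.81e-05 from edgeR with the block). *P3h3* was higher by 0.48 and *P4ha1* lower by 0.26 on the log2 scale, with adjusted p-values of 0.00615 and 0.0244 in this fit. Among the genes of propeptide cleavage (6 of 8 tested), *Pcolce2* passed without the block, and 4 of the 6 were higher in Myh11-low cells with it. *Pcolce2*, an enhancer of the cleavage, was at 165 and 211 CPM in Myh11-low and 70.9 and 93.4 CPM in Myh11-high cells (log2 difference 1.11 ± 0.18 SE, adjusted p = 0.0192 from edgeR), and its relative *Pcolce* at 299 and 296 CPM against 188 and 86.0 CPM. The median log2 difference of these 6 genes was 1.08, beside 0.04 over all genes. Of the genes of secretion (9 of 9 tested) 1 was higher and 3 were lower with the block, beside 14.2% and 13.2% of all genes. Among the lower was *Creb3l1*, a transcription factor that acts on collagen genes, at 31.6 and 19.6 CPM in Myh11-low and 49.5 and 41.7 CPM in Myh11-high cells (adjusted p = 0.00135 from edgeR with the block).

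Of the 5 cross-linking enzymes, *Loxl3* was higher and *Loxl2* and *Loxl4* were lower in Myh11-low cells with the block, and 0 passed without it, where 14.2% of all genes were called higher and 13.2% lower with the block and 1.74 and 3.18% without it. *Lox*, the most abundant, was at 1045 and 646 CPM in Myh11-low and 1043 and 516 CPM in Myh11-high cells and passed in neither fit. Of the fibril-associated collagens (6 of 9 tested), *Col14a1* and *Col16a1* were higher and *Col19a1* was lower with the block. The receptors (8 of 8 tested) had 2 genes higher and 1 lower without the block. *Itga2*, a collagen-binding integrin chain, was at 34.5 and 30.8 CPM in Myh11-low and 10.0 and 13.9 CPM in Myh11-high cells (adjusted p = 0.0169 from edgeR). *Mrc2*, which takes up collagen, was at 49.5 and 54.7 CPM against 28.3 and 17.7 CPM (adjusted p = 0.0315 from edgeR). *Itgb1*, the common partner chain, was lower at 776 and 667 CPM against 1268 and 1101 CPM (adjusted p = 0.0253 from edgeR). Of the cartilage genes (7 of 10 tested), *Acan* was lower in Myh11-low cells in both fits (1.31 and 0.569 CPM against 83.5 and 14.5 CPM, adjusted p = 0.0178 from edgeR), and *Comp*, *Matn3* and *Sox5* were higher and *Sox6* lower with the block. *Col24a1* was the one of the 2 tested other fibrillar collagens to pass with the block, at under 3 CPM in each class.

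In endothelial cells, 13 of the 16 folding and hydroxylation genes were lower than in Myh11-low cells with the block and 6 without it, and 0 were higher in either fit. Of all genes, 20.9% were called lower and 19.8% higher with the block, and 11.1 and 12.6% without it. *Plod2* was at 253 and 178 CPM in endothelial cells (log2 difference -2.43 ± 0.32 SE, adjusted p = 0.00192 from edgeR), and *Serpinh1*, the collagen chaperone HSP47, at 674 and 513 CPM against 1457 and 1029 CPM. The median log2 difference of the list was -0.73. *Lox* was at 319 and 156 CPM in endothelial cells (adjusted p = 0.0419 from edgeR), while *Loxl2* was higher in them, at 29.6 and 41.7 CPM against 18.6 and 15.9 CPM (adjusted p = 0.0483 from edgeR). *Creb3l2* was the 1 secretion gene that was higher, and 3 were lower without the block. The propeptide cleavage genes had 3, the receptors 4, the fibril-associated collagens 1 and the cartilage genes 2 lower calls without the block, and 0 higher. Between cycling and Myh11-low cells the 8 lists had 0 calls without the block, and with it 3 genes were higher and 12 lower, in a fit that called 16.1% of all genes higher and 12.2% lower. The lists had 16 (folding), 9 (secretion), 6 (cleavage), 5 (cross-linking), 6 (fibril-associated), 8 (receptors), 7 (cartilage) and 2 (other fibrillar) genes tested. The 3 higher were *Creb3l2*, *Acan* and *Matn3*, and the 12 lower were *Plod2*, *Plod3*, *P3h3*, *P3h4*, *Ppib*, *Sec23a*, *Bmp1*, *Col12a1*, *Col20a1*, *Comp*, *Sox5* and *Col10a1*. *Creb3l2* and *Acan*, but not *Matn3*, were also higher in Myh11-high than in Myh11-low cells of both libraries. The cycling class holds Myh11-high cells, and their part in these calls was not tested. Between Sox9 and Myh11-low cells the 8 lists had 0 calls in either fit.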

How the data were processed

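The deposited files held raw UMI counts per gene and barcode, which the authors made with Cell Ranger (version 3.0.2 per the labels, genome build mm10), with empty droplets included. The header of the second library names version 3.1.0 instead. Of the 31053 gene identifiers, 30934 were found in GENCODE M21 (GRCm38). Cells were filtered and classed as stated in the report, genes needed 10 cells (16494 genes), doublets were kept with no caller run, and no clustering was used. Counts were summed per class and library and tested with edgeR 4.0.16 (TMM, filterByExpr, Benjamini-Hochberg adjustment, threshold 0.05). Standard errors are the log2 difference over the square root of F.

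The replicate numbers pair the sums, because sums of the same number come from the same culture. Their deviations from the class means correlated across genes at 0.205 to 0.735 in all pairs of classes. The libraries differed by a median chi-square of 16.6 per gene. With 2 libraries, p-values without the block measure only the spread between these cultures. Those with the block measure only the spread left between their sums once the library difference is taken out. Alternatives were DESeq2 1.42.0, no TMM, no filter, other cell filters and depths, cuts relative to depth, other class orders, and free RNA subtracted, also with the block (20.7 and 12.9% of UMIs, from 33 and 50 marker UMIs in barcodes of 1 to 100 UMIs). The free RNA part counts every UMI of *Kdr*, *Tie1*, *Tek* and *Emcn* outside the endothelial class as free RNA. It was too high for most endothelial cells, so that the subtraction may take out too much. Shares carry exact binomial intervals.

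The 8 genes and the lists were chosen with earlier results of these data known. Named are the 8 genes in every comparison, up to 4 genes per list by adjusted p, and the 3 genes most like a member by Pearson's r of log2(CPM + 1). *Acan*, *Lum*, *Pdgfra* and *Tfap2b* as selectors of cells, *Cd34* and further genes of the lists were named after their values were seen. Only the fit without the block was tested on simulated counts, for Myh11-low over Myh11-high cells and with no library difference simulated. The blocked fits, the fit of cycling and non-cycling cells and DESeq2 were not tested in this way.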

Additional observations from a re-analysis of the deposited data

How the results depend on the processing

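Between Myh11-low and Myh11-high cells, 692 genes passed, 3854 with the replicate block, 1567 with DESeq2 and 79 when only endothelial cells were taken out first, a fit of 4 sums. Between Sox9 and Myh11-low cells, 0 genes passed, 7 with DESeq2 and 2 with the block. Between cycling and Myh11-low cells, 839 genes passed, 1575 with DESeq2 and 3973 with the block. Between endothelial and Myh11-low cells, 3329 genes passed, 5726 with the block and 2159 when only endothelial cells were taken out first. Among non-cycling cells 584 genes passed, and 3342 with the block, and among cycling cells 355, and 2447 with the block. With the replicate block and free RNA subtracted together, 3375, 1, 3086 and 5616 genes passed in the first 4 of these comparisons. The cause of these changes was not tested.

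Of 432 tested alternatives for the 8 genes, 385 kept the direction and the side of the threshold, 26 passed where the fit without the block did not, 4 lost the call, and 17 turned the direction of a value that had not passed. *Col5a2* between Sox9 and Myh11-low cells was 0.00 and took the values -0.0060 without the filter, -0.0365 in cells of middle depth, -0.0165 with cuts relative to depth, -0.0033 with DESeq2, -0.0010 with free RNA subtracted, -0.0058 with the block, -0.0072 with the block and free RNA subtracted, -0.0135 with only endothelial cells out first, and -0.0017 without the richest *Col2a1* cell. *Col11a1* there was -0.0215 with only endothelial cells out first. Between cycling and Myh11-low cells, *Col2a1* turned to -0.28 with cuts relative to depth and -0.47 with only endothelial cells out first. *Col3a1* turned to 0.0129 with cuts relative to depth, 0.0135 with the block, 0.0167 with the block and free RNA subtracted, 0.0064 without TMM and 0.0322 with only endothelial cells out first.

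Without 1 library there is no test. The Myh11-low over Myh11-high log2 difference of *Col11a1* was 1.18 in replicate 1 and 3.22 in replicate 2, and that of *Col2a1* 1.09 and 3.14. The Sox9 over Myh11-low difference of *Col2a1* was -0.41 and 1.88. The richest *Col2a1* cell of replicate 1 was a Myh11-low cell. Without it that class was at 1.95 CPM, beside 2.12 CPM in the Sox9 cells of replicate 1. The ratio of *Col5a2* to *Col3a1* in endothelial cells, 1.16 and 3.89, was 1.77 and 25.9 with a mean of 13.8 with free RNA subtracted. Depth limits *Col5a3* and *Col2a1*, which were at a few CPM in most classes.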

Other observations

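In cells with at least 5 UMIs of *Gpnmb*, a lysosomal glycoprotein gene, *Col3a1* was at 427 CPM (144 cells of replicate 1) and 377 CPM (1490 cells of replicate 2), against 778 and 646 CPM in cells with none. *Col1a1* did not follow in both libraries, with 1090 and 795 CPM against 1386 and 785 CPM. *Col5a3* was at 11.2 and 10.3 CPM in the 706 and 149 cells with at least 2 UMIs of *Il1rn*, the interleukin 1 receptor antagonist, against 6.33 and 3.25 CPM in cells with none. In the free RNA the 8 genes held 0.400 and 0.276% of UMIs, less than in the cells. These values have no test, and the selecting genes were chosen with earlier results of these data known.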
